A study of Homo sapiens with 9 samples.

Results

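The delayed phase of a carcinoma cell culture's exposure to stellate cell supernatant was described by setting the arrays of 6 and 7 h against those of 3 and 4 h, which together are 4 of the 9 arrays in the series. All arrays came from MiaPaCa2, an established line of human pancreatic carcinoma. The cells of the 6 to 7 h pair had been given the supernatant of naive pancreatic stellate cells for 6 and for 7 h, and those of the 3 to 4 h pair for 3 and for 4 h. Arrays after 1 and 2 h served as an earlier point, and single arrays after 5 h, after 24 h and of a control at 24 h are given as values beside the results. The pairs were set by the hours in the labels, but the 5 h array was kept out because its values were noisier, a choice not made from the labels. Each hour was 1 array, so the 2 hours of a pair stood in for replicates and their spread also holds any change within the pair. By the labels the supernatant went on for a given time ahead of harvest, yet cultures were also collected each hour, so hours of exposure and time in culture cannot be told apart. The labels do not say what was added to the control cells, and the control's title repeats the treatment. No label names separate cultures or the donors of the stellate cells, so p-values measure only the scatter between these arrays, which may be technical.

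Stellate cells are the fibroblast-like cells of the pancreas that lay down the stroma of its tumours, and their secreted factors reach tumour cells through growth factor, cytokine and integrin receptors. Growth factors switch on immediate early genes such as FOS and EGR1 through the ERK kinases, and the products of those genes start a delayed wave that includes the phosphatases and adaptors which damp ERK again. Where the stimulus carries cells into the cycle, E2F factors then turn on the genes of DNA replication, while FOXO factors, which growth factor signalling keeps out of the nucleus, lose hold of theirs.

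Values are log2 expression of 12402 genes, each read by 1 probe set (a group of short probes against 1 transcript) with a mean of at least 5 over the 9 arrays. The array medians lay between 4.92 and 4.97. The 5 h and control arrays stood apart, with median correlations of 0.991 and 0.990 with the other arrays, where the lowest of the rest was 0.996. The probe sets for the 3' and 5' ends of ACTB, a sign of RNA integrity, were apart by 1.75 and 1.76 (log2) at 6 and 7 h, against 1.86 and 1.97 at 3 and 4 h, so this measure also separated the pairs and its part in the results was not tested. The same difference for GAPDH was 0.148 and 0.099 at 6 and 7 h, against 0.147 and 0.131 at 3 and 4 h, which overlapped. On the 5 h array the differences were 2.24 for ACTB and 0.195 for GAPDH, each the largest of the 9 arrays. The part of this in the 5 h values given below was not tested.

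No gene differed between 6 to 7 h and 3 to 4 h beyond the scatter of the arrays. In a limma fit over all 9 arrays, 0 of 12402 genes (0%) passed an adjusted p of 0.05, and the smallest adjusted p was 0.718. At an unadjusted p under 0.05 there were 616 genes, 251 higher and 365 lower at 6 to 7 h, where 620.1 would be reached by that threshold alone. That count depended on single arrays, as leaving out 6 h gave 1400 genes and leaving out 4 h gave 395. The SE of a single gene's difference had a median of 0.0783 (log2). Over all genes the differences had an SD of 0.105, while 7 h minus 6 h had an SD of 0.162 and 4 h minus 3 h one of 0.123. From these within-pair spreads alone the difference of the pair means would have an SD of 0.102. An exact permutation test of 2 arrays against 2 cannot give a two-sided p below 0.333. The sizes below are therefore descriptions, and none of the differences named passed the test.

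**Figure D1:**
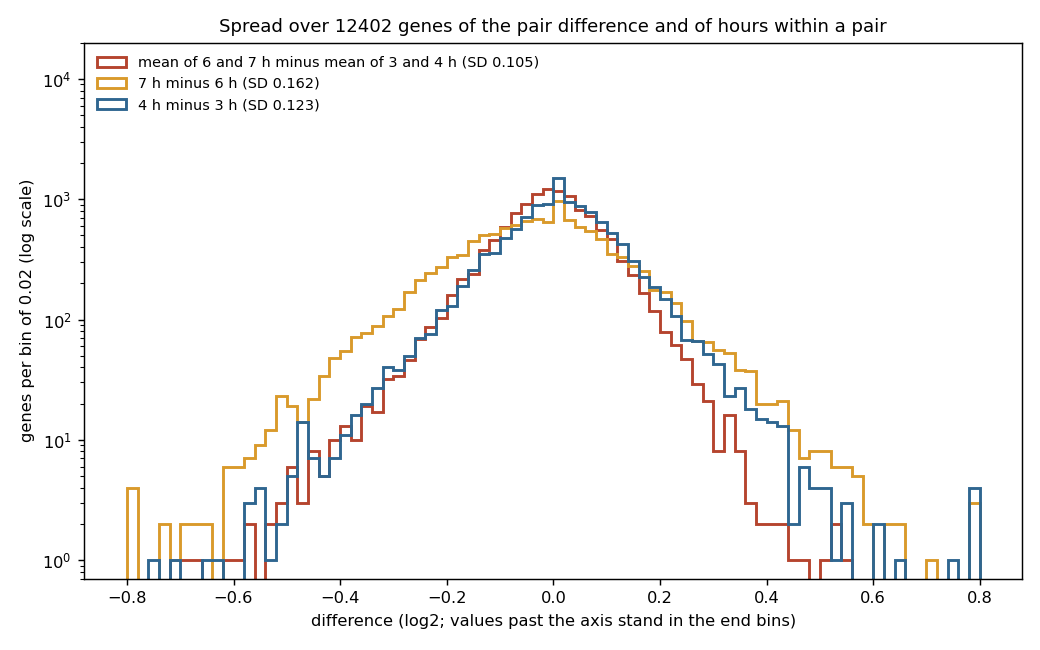
Histogram of differences over 12402 genes on the log2 scale, with the number of genes per bin on a log axis: the mean of 6 and 7 h minus the mean of 3 and 4 h (red), 7 h minus 6 h (orange) and 4 h minus 3 h (blue). The pair difference had an SD of 0.105, and the hours within a pair 0.162 and 0.123. The latter are differences of single arrays, which scatter more than differences of pair means.

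The differences were small. The highest was 0.56 ± 0.17 (log2, SE) for ITGB8, an integrin subunit that frees TGF-beta from its latent form, and the lowest was -0.71 ± 0.44 for SLC30A1, the zinc exporter of the cell surface. At 6 to 7 h, 1774 genes (14.3%) lay above 3 to 4 h with no overlap of the arrays and 1955 (15.8%) lay below. Of these, 0 (0%) were at least 1.5-fold higher and 4 (0.0323%) at least 1.5-fold lower. For comparison, 32 genes were at least 1.5-fold apart between 7 h and 6 h, and 12 between 4 h and 3 h. Those are differences of single arrays, which scatter more than differences of pair means.

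**Figure D2:**
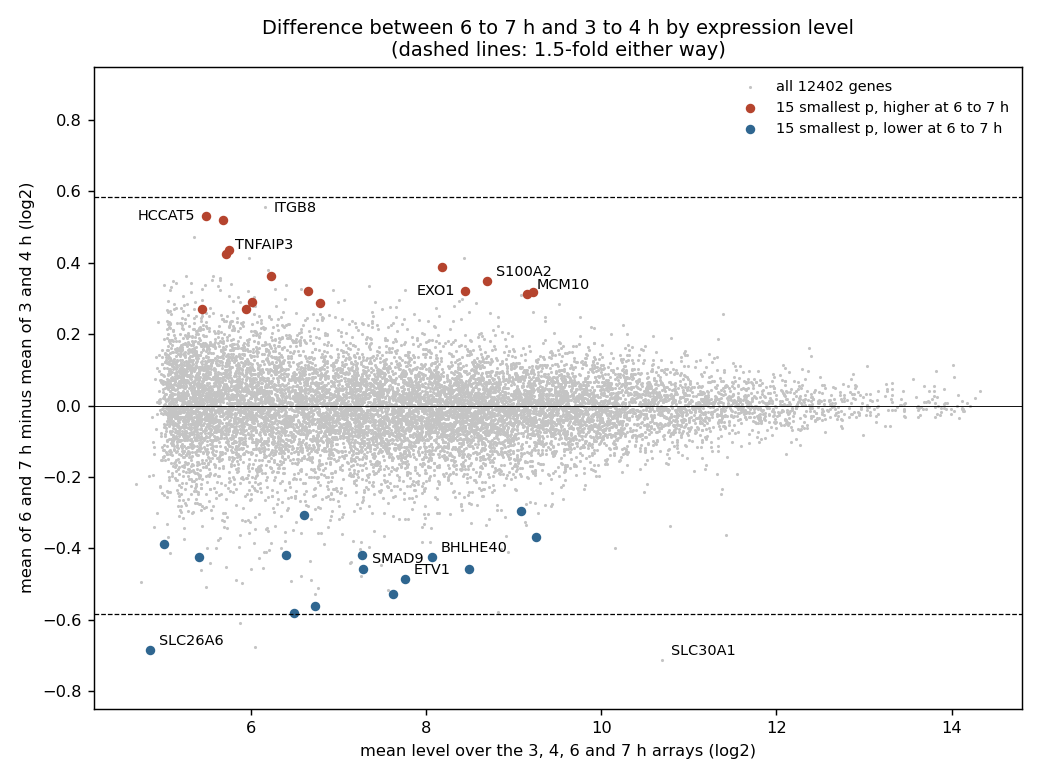
Each point is a gene, with its mean level over the 3, 4, 6 and 7 h arrays (log2) on the x axis and the mean of 6 and 7 h minus the mean of 3 and 4 h (log2) on the y axis. The 15 genes of each direction with the smallest p are coloured, dashed lines mark 1.5-fold, and only 4 genes, all lower at 6 to 7 h, lie past them.

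The 15 genes higher at 6 to 7 h with the smallest p had differences of 0.27 to 0.53 and an adjusted p of 0.913 each. MCM10, which loads onto replication origins as they fire, stood at 9.34 and 9.28 at 6 and 7 h, against 8.95 and 9.05 at 3 and 4 h, a difference of 0.31 ± 0.07 (log2, SE). Its 3 probe sets of sufficient level gave 0.29 to 0.32. EXO1, an exonuclease of mismatch repair and of DNA end resection, stood at 8.56 and 8.66, against 8.26 and 8.31, and differed by 0.32 ± 0.07. In both genes the hourly arrays from 1 to 7 h lay in nearly the order of the hours, from 8.52 at 1 h for MCM10 and 7.91 for EXO1. The 24 h array was at 8.25 and 7.86, below the control array at 8.97 and 8.20, which lay close to 3 and 4 h.

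POLR1G, a subunit of RNA polymerase I, which transcribes ribosomal RNA, was at 9.40 and 9.35 at 6 and 7 h and at 9.09 and 9.03 at 3 and 4 h. UTP25, a factor of the small ribosomal subunit's assembly, was at 8.33 and 8.42, against 7.98 and 7.98, with other probe sets of the gene down to -0.10. TNFAIP3, the A20 protein that shuts off NF-kB signalling, was at 5.94 and 5.90 at 6 and 7 h, against 5.42 and 5.58 at 3 and 4 h. Its levels at 1 and 2 h, 5.73 and 5.77, lay between those pairs, so that 3 and 4 h were the low point of its course. S100A2, a calcium-binding protein of epithelial cells, was at 8.82 and 8.91, against 8.56 and 8.48, and the control array was higher than all exposed ones at 9.74.

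Of the remaining genes among the 15, HCCAT5, a long noncoding RNA, had the lowest p of the higher genes, at 5.78 and 5.73 against 5.30 and 5.14. DNAH5, a heavy chain of ciliary dynein, differed by 0.52 ± 0.12 and CHRNA5, a nicotinic acetylcholine receptor subunit, by 0.44 ± 0.10. TNFRSF21, also known as death receptor 6, differed by 0.36 ± 0.08 and PDLIM7, an actin-bound scaffold, by 0.32 ± 0.08. The other 4 were S100A5, PARP10, PADI2 and ENTPD1-AS1, with differences of 0.27 to 0.29. For UTP25, PARP10 and PDLIM7 another probe set of the gene pointed the other way. Of the 15, 7 had a mean level below 6 over the 9 arrays, near the bottom of what was kept.

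**Figure D3:**
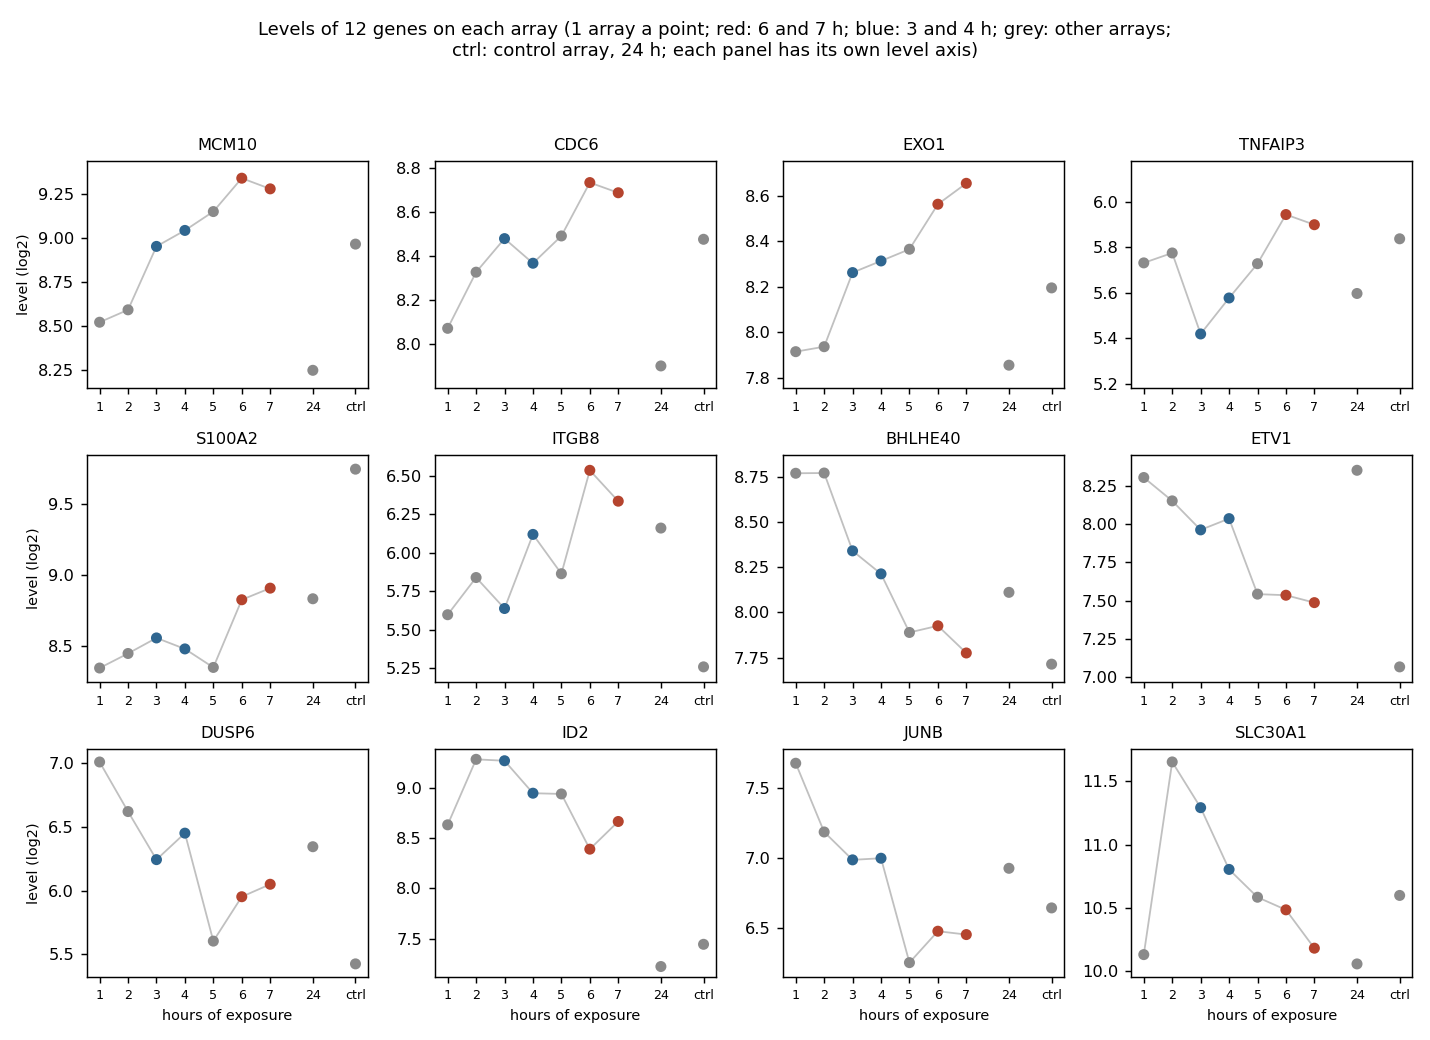
Levels (log2) of 12 genes on each of the 9 arrays, in order of hours with the control array last, where red points are 6 and 7 h and blue points 3 and 4 h. MCM10 and EXO1 were higher at 6 and 7 h than on any earlier hourly array, whereas DUSP6 and JUNB were lowest of the hourly arrays at 5 h, the array that stood apart.

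Among the 15 genes lower at 6 to 7 h with the smallest p, differences ran from -0.30 to -0.69, with adjusted p of 0.718 to 0.913. ETV1, an ETS factor that ERK signalling induces, stood at 7.54 and 7.49 at 6 and 7 h, against 7.96 and 8.03 at 3 and 4 h, a difference of -0.49 ± 0.08, and 24 h was the highest of its arrays at 8.35. BHLHE40, a transcriptional repressor of the circadian clock and of stress responses, stood at 7.93 and 7.78, against 8.34 and 8.21, and differed by -0.43 ± 0.08, though another probe set gave only -0.06. SMAD9, which carries BMP receptor signals, stood at 7.03 and 7.07, against 7.47 and 7.54. At 1 and 2 h SMAD9 was at 7.13 and 7.10, so its 3 and 4 h arrays were a high point and the later pair lay close to the earliest arrays.

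TNRC6B, a partner of Argonaute in microRNA silencing, was at 7.47 and 7.23 at 6 and 7 h and at 7.84 and 7.92 at 3 and 4 h, while another of its 7 probe sets showed 0.01. PNISR, a serine and arginine rich nuclear protein, was at 9.01 and 9.13, against 9.43 and 9.46. PACSIN1, an adaptor of endocytosis, was at 6.20 and 6.19, against 6.71 and 6.52. TRIM55, a muscle ubiquitin ligase, and ZNF827, a zinc finger protein, differed by -0.30 ± 0.06 and -0.39 ± 0.08. ZNF827 was at 4.74 and 4.90 at 6 and 7 h, below the floor of 5, against 5.21 and 5.21, and another probe set gave -0.11. Of the 15 lower genes, 3 had a mean level below 6 over the 9 arrays.

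A further group of these lower genes was high on the arrays that stood apart. SLC26A6, an anion exchanger with the smallest p of all genes tested, was at 4.57 and 4.44 at 6 and 7 h and 5.11 and 5.28 at 3 and 4 h, but at 6.13 on the 5 h array and 5.95 on the control. It reached a mean of 5 only through those arrays: over the other 7 its mean was 4.82. With the level filter set on those 7 arrays it was not tested, and the smallest adjusted p of the comparison was 0.936. HCRP1, a symbol with no match in the gene table, was at 6.22 and 6.19, against 6.72 and 6.85, with 7.80 at 5 h and 7.68 in the control. The noncoding RNA SPRY4-IT1 was at 8.23 and 8.29, against 8.76 and 8.68, with 9.98 at 5 h, and another of its probe sets differed by 0.20. With GABPB1-AS1 and LINC01000, these are 5 of the 15 lower genes in which the 5 h and control arrays both lay above all 4 arrays compared, where none of the 15 higher genes did. The same held for 822 of all 12402 genes (6.63%), and for 11.4% of the genes lower without overlap, against 3.78% of those higher without overlap. Neither array enters the difference itself. SLC6A16, an orphan transporter, also peaked at 5 h (6.59) and the last of these genes, the noncoding PPP1R26-AS1, differed by -0.56 ± 0.09.

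The 4 genes at least 1.5-fold lower without overlap were SLC30A1, SLC26A6 and the antisense transcripts ST7-AS1 and SDCBP2-AS1. Without SLC26A6, whose 6 to 7 h mean of 4.50 lay below the floor of 5, they were 3, the count also given by the filter on 7 arrays. SLC30A1, a target of the zinc sensor MTF1, was at 10.49 and 10.18 at 6 and 7 h, against 11.29 and 10.80 at 3 and 4 h. From a high of 11.65 at 2 h each later hourly array was lower than the one before, while the 1 h array was at 10.13, and its SE was 0.44. ST7-AS1 was at 5.93 and 5.48, against 6.33 and 6.43, and SDCBP2-AS1 at 5.78 and 5.36, against 6.08 and 6.29, with another probe set of SDCBP2-AS1 at 0.07.

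Gene lists of pathways were read by their medians and by how many members did not overlap, beside 14.3% of all genes higher and 15.8% lower. No member of any list passed the test. Lists for DNA replication, ribosome production, interferon-stimulated genes and chaperones leaned higher at 6 to 7 h, and lists for ERK output, early response factors, Kruppel-like factors, FOXO-type genes, the EGF receptor family and mitosis leaned lower. The median difference over all genes was -0.0046.

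**Figure D4:**
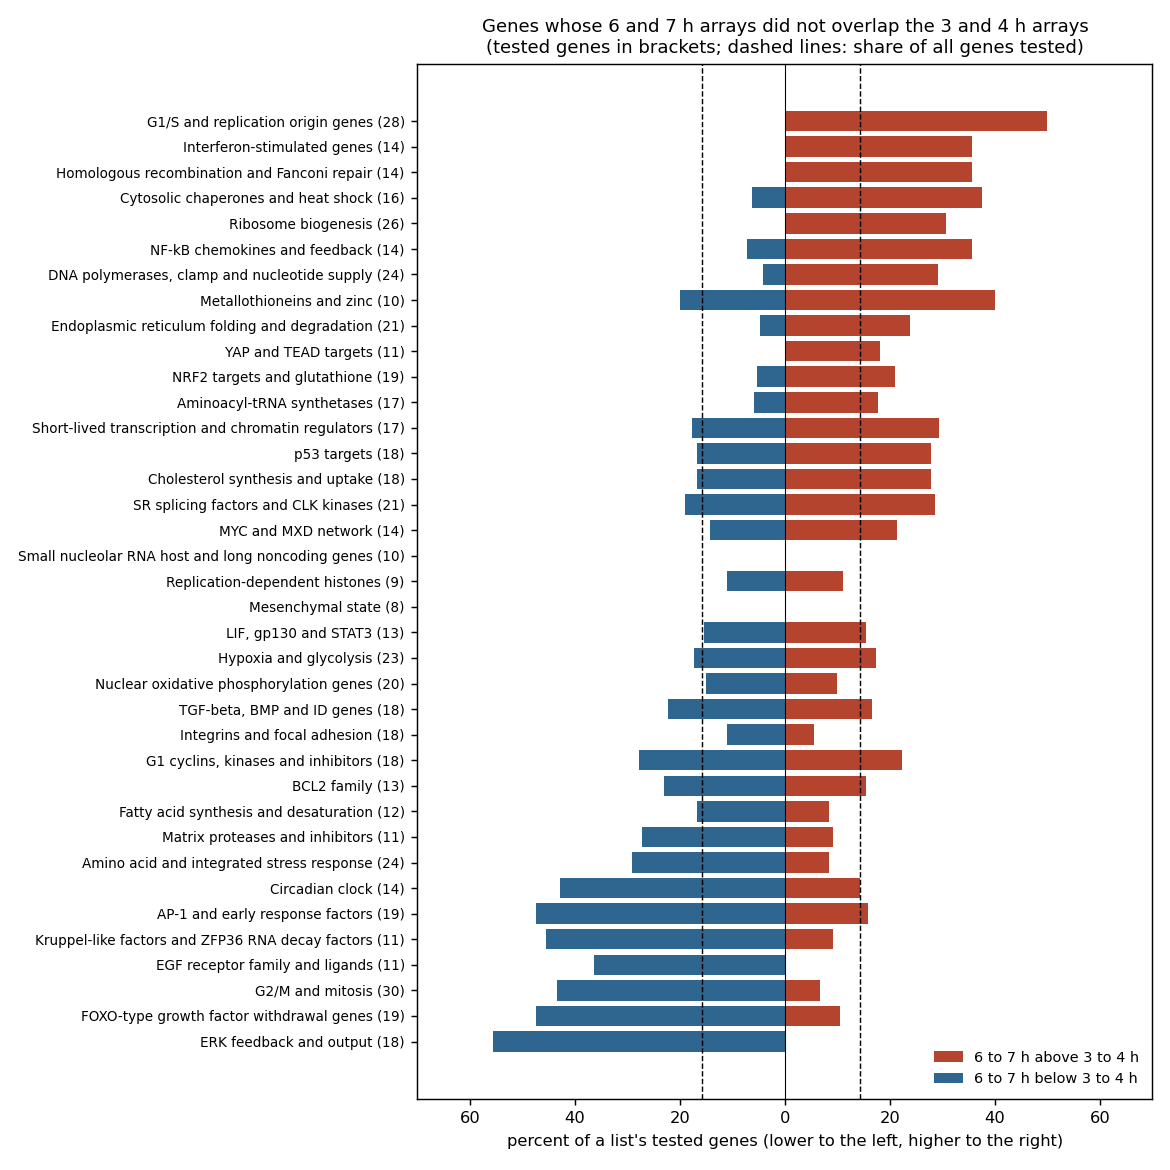
For each of 37 gene lists, the percent of tested members whose 6 and 7 h arrays both lay above (red, right) or both below (blue, left) the 3 and 4 h arrays, with dashed lines at the 14.3% and 15.8% of all genes. The G1/S and replication origin list had 50% higher and 0% lower, and the ERK feedback and output list 0% higher and 55.6% lower.

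Genes of the G1/S transition and of replication origins stood higher at 6 to 7 h as a group. Of 28 measured members, 26 had a positive difference and 14 lay above 3 to 4 h without overlap, with none below, and the median was 0.10 (log2). CDC6, which loads the replicative helicase, was at 8.73 and 8.69 at 6 and 7 h, against 8.48 and 8.37 at 3 and 4 h. E2F1, the activating E2F itself, was at 7.91 and 7.77, against 7.62 and 7.60, and ORC1 of the origin recognition complex at 8.14 and 8.26, against 7.94 and 8.02. GINS3, a part of the active helicase, and DTL, the adaptor that destroys the licensing factor CDT1 in S phase, differed by 0.18 ± 0.07 and 0.17 ± 0.08. The list's median against 3 to 4 h was -0.30 and -0.16 on the first arrays (1 and 2 h) and 0.01 on the 5 h array. It was 0.08 and 0.11 on the 6 and 7 h arrays, and -0.44 on the 24 h array. On the control array it was -0.02, so the 1, 2 and 24 h arrays lay below the control and not level with it. In a bulk culture, a larger share of cells in one phase of the cycle and more RNA per cell cannot be told apart.

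Promoters of 3 members are shown because the list was the one with the largest share of higher genes, a choice made after the values were seen. The sequences are RefSeq promoters of build GRCh38.p14, from 250 bases before to 50 after the annotated start, and capitals mark the E2F-type letters TTTGGCGC and TTTGGCGG and, in MCM10, the cyclic AMP response element TGACGTCA. MCM10 lies at chr10:13161308-13161607 on the plus strand, CDC6 at chr17:40287629-40287928 on the plus strand, and E2F1 at chr20:33686336-33686635 on the minus strand.
MCM10: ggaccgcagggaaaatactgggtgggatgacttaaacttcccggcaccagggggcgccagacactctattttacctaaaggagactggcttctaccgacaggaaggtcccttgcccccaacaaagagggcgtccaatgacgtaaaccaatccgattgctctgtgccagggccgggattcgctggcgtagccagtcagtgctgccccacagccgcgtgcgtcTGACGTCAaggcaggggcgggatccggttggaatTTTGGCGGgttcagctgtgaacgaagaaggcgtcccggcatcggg
CDC6: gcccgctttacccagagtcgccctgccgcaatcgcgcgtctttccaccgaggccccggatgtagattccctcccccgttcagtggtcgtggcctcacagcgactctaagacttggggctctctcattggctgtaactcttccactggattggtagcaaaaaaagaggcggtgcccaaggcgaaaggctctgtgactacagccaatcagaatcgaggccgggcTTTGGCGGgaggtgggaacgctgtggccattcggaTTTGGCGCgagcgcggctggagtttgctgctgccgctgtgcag
E2F1: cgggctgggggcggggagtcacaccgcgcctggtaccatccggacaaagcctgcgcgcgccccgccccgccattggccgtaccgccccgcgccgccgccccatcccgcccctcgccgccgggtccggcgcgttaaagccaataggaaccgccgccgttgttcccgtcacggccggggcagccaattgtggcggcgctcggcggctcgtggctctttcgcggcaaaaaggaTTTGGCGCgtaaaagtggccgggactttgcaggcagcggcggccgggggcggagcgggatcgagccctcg
In CDC6 the E2F-type letters begin 28 bases before and 7 bases after the start, in MCM10 5 bases after it and in E2F1 20 bases before it.

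The E2F-type letters were searched as TTTGGCGC, TTTCCCGC, TTTGGCGG and TTTCCCGG on both strands. They were in 18 of 30 promoters of the G1/S list (23 genes matched) and in 3 of 33 promoters of the mitosis list (25 genes), or 60% and 9.09%, where 4.31% of all 35116 promoters held one. The cell cycle homology region, CHR, searched as TTTGAA, was in 0 of 30 promoters of the G1/S list and in 18 of 33 of the mitosis list, or 54.5%, against 15.2% of all. The full response element TGACGTCA, which contains the shorter TGACGT, was in 6.67% of the G1/S promoters and 1.85% of all, and the shorter letters in 13.3% and 7.98%. Of the searched lists that leaned lower, the full element was in 6.06% of mitosis, 9.09% of ERK and 10.5% of early response promoters, each 2 promoters. It was in 0 of 28 promoters of the FOXO-type list. Among 22 promoters of the ERK feedback list (12 genes), AP-1 letters (TGANTCA) were in 4.55% against 7.71% of all, E-box letters (CACGTG) in 9.09% against 7.26%, NRF2-type letters (TGACNNNGC) in 13.6% against 13.3%, and the shorter TGACGT in 18.2% against 7.98%. A match is a run of letters and says nothing of binding. The lists were drawn up by known function in the cell cycle and in signalling, so these shares describe the lists. They give no support for a difference between 6 to 7 h and 3 to 4 h.

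The enzymes that copy and repair DNA leaned the same way. Of 24 polymerase, clamp and nucleotide supply genes, 20 were positive, 7 lay above without overlap and 1 below, with a median of 0.05. POLD3, a subunit of polymerase delta, was at 8.44 and 8.53 at 6 and 7 h, against 8.27 and 8.36 at 3 and 4 h, although another of its probe sets gave -0.18. TIPIN, a fork protection factor, and the flap endonuclease FEN1 differed by 0.16 ± 0.09 and 0.12 ± 0.07. In the list of homologous recombination and Fanconi genes, 11 of 14 were positive and 5 lay above without overlap, none below, with a median of 0.09. After EXO1 its members with the largest differences were XRCC3 and XRCC2, both of homologous recombination, at 0.29 ± 0.15 and 0.17 ± 0.13, and both overlapped. The mismatch reader MSH6 was at 11.41 and 11.29, against 11.20 and 11.24. Replication-dependent histones, whose transcripts lack the tail that the labelling reaction primes from, had 9 measured members, 1 higher and 1 lower without overlap.

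Mitotic genes leaned lower at 6 to 7 h. Of 30 members, 26 were negative, 13 lay below without overlap and 2 above, with a median of -0.07. HMMR, a spindle and hyaluronan-binding protein, was at 11.26 and 11.27 at 6 and 7 h, against 11.53 and 11.47 at 3 and 4 h. NEK2, a centrosome kinase, was at 9.78 and 9.62, against 9.97 and 9.82, and CENPF, a kinetochore protein, at 10.46 and 10.24, against 10.59 and 10.47. These differences were small beside the control array, on which the list's median lay 0.70 above 3 to 4 h. Of 18 G1 cyclins, kinases and inhibitors 4 lay above and 5 below without overlap. The inhibitor CDKN1C had the largest difference, at 5.17 and 5.40, against 5.60 and 5.52, with probe sets from -0.42 to 0.07.

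Production of ribosomes leaned higher. Of 26 biogenesis genes, 24 were positive, 8 lay above without overlap and none below, with a median of 0.06 that was 0.07 at 6 h and 0.08 at 7 h. POLR1B, the second largest subunit of RNA polymerase I, was at 9.33 and 9.37 at 6 and 7 h, against 9.10 and 9.08 at 3 and 4 h. Its 5 h array was as high at 9.37, whereas the list's median on that array was -0.01 against 3 to 4 h. RRP9, a component of the box C/D U3 particle that processes ribosomal RNA, was at 7.57 and 7.53, against 7.35 and 7.32, and NOP16 at 11.37 and 11.49, against 11.22 and 11.27. POLR1B and NOP16 also had probe sets of the other sign, down to -0.05 and -0.08.

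The NF-kB list was mixed. Of its 14 genes, 5 lay above without overlap and 1 below, with a median of 0.01. Beside TNFAIP3, the inhibitor NFKBIA was at 9.91 and 9.95 at 6 and 7 h, against 9.70 and 9.83 at 3 and 4 h, and the subunit RELB at 6.03 and 5.85, against 5.47 and 5.83, where the 7 h array lay just above the 4 h array. The interferon regulatory factor IRF1 was lower, at 6.46 and 6.40, against 6.64 and 6.74. The chemokine CXCL1 was at 10.36 and 10.54, against 10.46 and 10.61, and overlapped. Of 14 interferon-stimulated genes, 11 were positive and 5 lay above without overlap, none below, with a median of 0.07. OASL, an antiviral protein related to 2'-5' oligoadenylate synthetases, was at 8.55 and 8.49, against 8.29 and 8.26, and HERC6 at 6.08 and 6.20, against 5.97 and 5.99. Over these genes the 5 h array lay at -0.22 relative to 3 to 4 h.

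Chaperones leaned slightly higher. Of 16 cytosolic chaperone and heat shock genes, 6 lay above without overlap and 1 below, with a median of 0.05. CHORDC1, a cochaperone of HSP90, was at 10.05 and 10.13 at 6 and 7 h, against 10.01 and 9.83 at 3 and 4 h. HSF1, the heat shock factor, was the 1 below, at 7.69 and 7.70, against 7.85 and 7.88, with another probe set at 0.24. In the endoplasmic reticulum, 5 of 21 genes lay above without overlap and 1 below. HSPA5, the main chaperone of that compartment, differed by 0.14 ± 0.06 and the secreted factor MANF by 0.19 ± 0.07.

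Early response transcription factors leaned lower at 6 to 7 h. Of 19 measured, 15 were negative, 9 lay below without overlap and 3 above, with a median of -0.06. JUNB, an AP-1 subunit, was at 6.48 and 6.45 at 6 and 7 h, against 6.99 and 7.00 at 3 and 4 h. EGR1, a zinc finger factor that ERK signalling induces within minutes, was at 9.71 and 10.21, against 10.30 and 10.42, and had been at 11.71 at 1 h. EGR3 was at 6.24 and 6.17, against 6.62 and 6.50. IER3 and FOSL1, which also belong to the ERK list below, differed by -0.23 ± 0.08 and -0.20 ± 0.12. ATF3, outside those named for size, was higher without overlap at 6.28 and 6.38, against 6.06 and 6.23.

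Kruppel-like factors and the ZFP36 proteins, which bind AU-rich RNA and hasten its decay, leaned lower in 8 of 11 genes, with 5 below and 1 above without overlap and a median of -0.13. KLF9 was at 6.67 and 6.35 at 6 and 7 h, against 7.14 and 6.91 at 3 and 4 h, and had been at 8.08 at 1 h. ZFP36 was at 6.83 and 7.01, against 7.42 and 7.30, and KLF10, a TGF-beta-induced factor, at 8.84 and 8.63, against 9.19 and 9.01. In the list of ERK feedback and output, 15 of 18 were negative, 10 lay below without overlap and none above, with a median of -0.14. Beside ETV1 these included DUSP6, the cytoplasmic phosphatase of ERK, at 5.95 and 6.05, against 6.24 and 6.45. The RAS pathway inhibitors SPRED2 and SPRY4 were at 8.98 and 8.50, against 8.99 and 9.12, and at 9.85 and 9.51, against 9.95 and 9.88. For SPRED2 the 6 h array barely differed from 3 h and the 7 h array made the difference.

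Genes that rise when growth factors are withdrawn, many of them FOXO targets, leaned lower in 14 of 19, with 9 below and 2 above without overlap and a median of -0.12. KLHL24, a ubiquitin ligase adaptor, was at 7.31 and 6.77 at 6 and 7 h, against 7.55 and 7.34 at 3 and 4 h. FOXO1 was at 5.55 and 5.46, against 5.72 and 5.93, and CCNG2, an atypical cyclin of resting cells, at 6.49 and 6.56, against 6.84 and 6.84, with probe sets from -0.56 to 0.21. In the circadian list, 10 of 14 were negative and 6 lay below without overlap, 2 above, with a median of -0.13. After BHLHE40 its largest differences were in the activator TEF, at 6.21 and 6.00, against 6.37 and 6.51, and the clock repressor PER2, at 7.93 and 7.72, against 8.09 and 8.05.

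In these lower lists the 7 h array carried more than the 6 h array. Relative to 3 to 4 h, the median of the Kruppel-like list was -0.04 at 6 h and -0.28 at 7 h, that of the ERK list -0.07 and -0.20, that of the FOXO-type list -0.01 and -0.18, and that of the circadian list -0.03 and -0.22. The 5 h array was at -0.26 in the Kruppel-like list and -0.29 in the FOXO-type list. At 24 h the medians of these 4 lists, in the order given, were 0.09, 0.01, 0.26 and 0.02. In the G1/S list the medians were 0.08 and 0.11, and in the ribosome list 0.07 and 0.08.

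**Figure D5:**
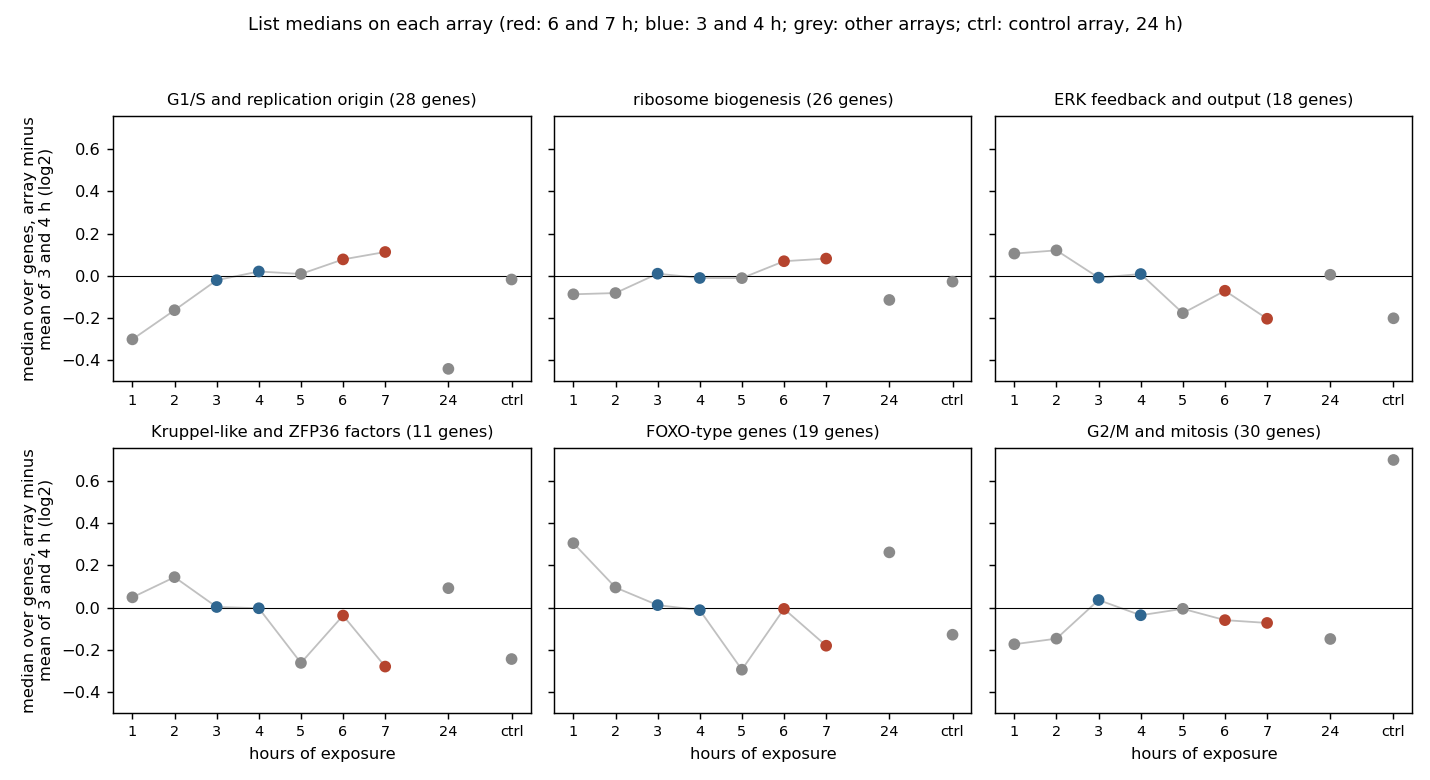
Median over each list's tested genes of an array's level minus the mean of 3 and 4 h (log2), by array, with 6 and 7 h in red, 3 and 4 h in blue and the others in grey. The G1/S list lay at 0.08 and 0.11 at 6 and 7 h, whereas in the Kruppel-like list 6 h was at -0.04 and 7 h at -0.28.

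The ID proteins, which hold back basic helix-loop-helix factors, stood lower at 6 to 7 h without passing the test. ID2 was at 8.39 and 8.66 at 6 and 7 h, against 9.27 and 8.94 at 3 and 4 h, ID3 at 11.16 and 11.33, against 11.64 and 11.57, and ID1 at 11.21 and 11.27, against 11.56 and 11.42. All 3 are direct targets of BMP signals, and none of their arrays overlapped. The whole list of 18 TGF-beta, BMP and ID genes had 3 above and 4 below without overlap and a median of -0.01. The 4 below were these 3 ID genes and BHLHE40. LTBP2, a matrix binding protein, was higher at 7.78 and 7.66, against 7.34 and 7.55, as was BAMBI, a decoy receptor named after its values were seen, at 7.45 and 7.39, against 7.22 and 7.23.

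Among integrin and adhesion genes ITGB8 had the largest difference. ITGB8 was at 6.54 and 6.34 at 6 and 7 h, against 5.64 and 6.12 at 3 and 4 h, and at 5.86 at 5 h. It was the 1 of 18 integrin and adhesion genes that lay above without overlap, with 2 below. In the EGF receptor family and its ligands, 4 of 11 lay below without overlap and none above, with a median of -0.06 that was 0.03 without the 7 h array. ERBB2 was at 8.39 and 8.30, against 8.45 and 8.53, and ERBB3 at 5.51 and 5.07, against 5.45 and 5.51, which overlapped. Of 11 matrix proteases and inhibitors 3 lay below and 1 above. The urokinase receptor PLAUR was at 8.63 and 8.41, against 8.89 and 8.82, and the collagenase MMP1 at 7.78 and 7.82, against 7.38 and 7.66.

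In metabolic and stress lists, too, single members stood out by size. In the zinc list, SLC30A1 and SLC39A10 were the 2 of 10 below without overlap and 4 lay above, among them the metallothioneins MT1F and MT1X with differences of 0.11 ± 0.19 and 0.09 ± 0.16. In cholesterol metabolism 5 of 18 lay above and 3 below. The sterol exporters ABCG1 and ABCA1 were at 6.08 and 5.67, against 6.36 and 6.24, and at 6.06 and 5.73, against 6.09 and 6.32, with another probe set of ABCG1 at 0.19. The synthesis enzymes MVD and DHCR7 differed by 0.22 ± 0.09 and 0.15 ± 0.06. In the amino acid and integrated stress response, 18 of 24 were negative, 7 lay below and 2 above without overlap, with a median of -0.05. Its largest difference was in SLC7A11, the cystine importer that is also an NRF2 target, at 7.91 and 7.62, against 8.20 and 8.09.

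The lists not described so far had medians within 0.05 of 0 in either direction and covered hypoxia and glycolysis (23 genes), fatty acid synthesis (12), NRF2 targets (19), aminoacyl-tRNA synthetases (17), p53 targets (18), the BCL2 family (13), the LIF and STAT3 axis (13), YAP and TEAD targets (11), the MYC network (14), oxidative phosphorylation (20), SR splicing factors (21), long noncoding host genes (10), short-lived chromatin regulators (17) and the mesenchymal state (8). Within them TP53INP1, a p53-induced autophagy factor, was lower at 6.21 and 5.78, against 6.47 and 6.34, and CSRNP1, an early nuclear protein, at 5.95 and 5.59, against 6.31 and 6.13.

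The labelled cell type was checked against its markers, which were uneven. Among the epithelial ones, the keratin KRT18 was at 13.53 and 13.41 at 6 and 7 h, against 13.43 and 13.42 at 3 and 4 h, and KRT8 at 11.36 and 11.02, against 11.09 and 11.03. KRT19 was at 10.19 and 10.13, against 10.05 and 10.21, and CEACAM6 at 5.11 and 5.07, against 5.09 and 5.33, near the floor. Of 10 duct and carcinoma markers 8 passed the level filter, none of them without overlap, and the adhesion proteins EPCAM and CDH1 did not reach it. Markers of stellate cells were measured in 9 of 14 genes, 2 above and 1 below without overlap, and their summed linear signal was 7976 and 7766 at 6 and 7 h, against 7746 and 7821 at 3 and 4 h. The stellate and pericyte marker RGS5 was at 12.17 and 12.18, against 12.18 and 12.23. Collagen transcript COL1A2 was at 11.05 and 10.95, against 10.88 and 10.90, and the others named for size, COL5A1, ACTA2, COL3A1 and DCN, had differences of -0.07 to 0.15. Leukocyte markers passed the filter in 4 of 10 genes, endothelial markers in 4 of 8 and acinar and endocrine markers in 1 of 9. In the last of these CELA3A was at 5.36 and 5.28, against 5.36 and 5.23.

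Set against 1 to 2 h, the later pair differed more. That contrast shares the 6 and 7 h arrays with the one above, so the values stand side by side and are not independent. No gene passed (0%), but the smallest adjusted p was 0.0545, and 1993 genes had an unadjusted p under 0.05, 721 higher and 1272 lower at 6 to 7 h, though leaving out 1 h gave 1178 and leaving out 6 h gave 2681. At an adjusted p under 0.1 there were 113 genes, 32 higher and 81 lower. BHLHE40, MCM10, DLX4 and EXO1 shared the smallest adjusted p and were named after their values were seen. BHLHE40 was at 7.93 and 7.78 at 6 and 7 h, against 8.77 and 8.77 at 1 and 2 h, a difference of -0.92 ± 0.08, beside -0.43 ± 0.08 against 3 to 4 h. For MCM10 the difference was 0.75 ± 0.07, beside 0.31 ± 0.07, and for EXO1 0.68 ± 0.07, beside 0.32 ± 0.07. DLX4, a homeobox factor, was at 5.30 and 5.24, against 6.11 and 5.96 at 1 and 2 h and 5.51 and 5.53 at 3 and 4 h.

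For the lists, the G1/S median was 0.34 against 1 to 2 h, where all 28 members were higher at 6 to 7 h, beside 0.10 against 3 to 4 h. The ERK list's median was -0.23, beside -0.14, that of the Kruppel-like list -0.30, beside -0.13, and that of the FOXO-type list -0.32, beside -0.12. Mitotic genes differed in sign, with 0.09 against 1 to 2 h and -0.07 against 3 to 4 h. KLF9 (-1.33 ± 0.17), EGR1 (-1.26 ± 0.30) and JUNB (-0.97 ± 0.15) had larger differences against 1 to 2 h than against 3 to 4 h.

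Whether the step into 6 to 7 h was larger or smaller than the step into 3 to 4 h was tested as a difference of the 2 steps, in which the 3 and 4 h arrays enter both. The later step spans more hours than the earlier one, so a steady change would also make the steps differ. No gene passed (0%), the smallest adjusted p was 0.9995, and 503 genes had an unadjusted p under 0.05, or 796 when 6 h was left out and 310 when 4 h was. For MCM10 the steps differed by -0.13 ± 0.12 and for BHLHE40 by 0.07 ± 0.14.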

How the data were processed

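The authors deposited log2 values made with RMA, per the submitters' processing notes, for 54675 probe sets of 9 arrays. Its version was not given in the sources used here. In the platform annotation 41097 probe sets had 1 gene symbol, 1801 several and 11777 none, and 41043 matched GRCh38.p14. A gene took its single-symbol probe set with the highest mean, and of 19775 genes those 12402 that averaged 5 or more entered the test. The test was limma 3.58.1 under R 4.3.3 (group means over all 9 arrays, lmFit and eBayes, two-sided, Benjamini-Hochberg, threshold 0.05). It had 3 residual and 3.88 prior degrees of freedom, to which the single 5 h, 24 h and control arrays added nothing. The code was also run on simulated data, with independent noise and no change within a pair, unlike what these arrays may hold. Arrays give no read depth; their number limits precision.

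The named genes were the 15 of each direction with the smallest p, as none passed, the 4 past 1.5-fold and the 5 members of a list that differed most. CXCL1, ATF3, DTL, BAMBI, RGS5, KRT19, CEACAM6, EPCAM, CDH1 and those said so in the text were named after their values were seen. Members, lists and tests were chosen with earlier results of these data known. Python 3.11.15, pandas 2.3.3, numpy 2.4.6 and matplotlib 3.10.9 made tables and figures. As one alternative, a filtered log2 table of 6370 probe sets was used that the authors deposited too, with equal values to within 5.00e-09.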

Additional observations from a re-analysis of the deposited data

How the results depend on the processing

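The comparison of 6 to 7 h with 3 to 4 h was rerun under 20 alternatives, and 0 genes passed under 19 of them. When the authors' filtered table was used, 2 genes passed (adjusted p 0.0437), PPA2 and SLC20A1, both lower at 6 to 7 h. They were read there by dim probe sets with differences of -0.98 and -0.83, whereas their brightest probe sets gave -0.013 and -0.058. Against 1 to 2 h, where 0 passed, robust estimation with an intensity trend gave 264 genes (102 higher, 162 lower), a minimum mean of 6 gave 67, the mean over probe sets 60, arrays shifted to 1 median 21, and protein-coding genes alone, added after the data were seen, 4. Leaving out 1 array gave 0 to 4, with 4 without the 2 h array. BHLHE40, EXO1 and MCM10 were called in 5 of the 6 settings that called any gene; the cause was not tested. For genes without overlap the count of 4 became 0 at 2-fold, 2 with the mean over probe sets, 3 with arrays shifted to 1 median or the filter on 7 arrays, and 6 with no filter. Of 625 values of 33 named genes, 622 kept their direction and none passed. PARP10 turned to -0.014 with the mean over probe sets, and SPRY4-IT1 and SLC6A16 to 0.11 and 0.039 with the 5 h array on the later side. Many alternatives change only the test or the genes kept and leave a gene's difference as it was. Leaving out 1 array cannot turn a gene without overlap, so many of these directions were fixed beforehand. Of the list medians of at least 0.05, the G1/S, ribosome, mitosis, ERK, Kruppel-like and circadian lists kept their sign under all 20 alternatives. Alternatives that leave each gene's difference as it was tell little about these medians either. The EGF receptor family turned to 0.03 without the 7 h array, interferon-stimulated genes to -0.04 with 5 h on the later side, and FOXO-type genes to 0.0038 with 5 h on the earlier side. No paired analysis was possible because replicate numbers only name the hours. The number of arrays, 2 a side, limits what can be detected.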

Other observations

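Probe sets of 1 gene did not always follow the same course over the hours. For SLC20A1, a sodium-phosphate cotransporter, the brightest probe set was at 12.36 and 12.16 at 6 and 7 h, against 12.30 and 12.33 at 3 and 4 h. A second one was at 8.66 and 8.48, against 9.29 and 9.52, and reached 10.42 at 5 h and 9.48 in the control. For PPA2, the mitochondrial pyrophosphatase, the brightest probe set was at 10.96 and 11.04, against 10.94 and 11.08, and a dim one at 5.54 and 4.93, against 6.11 and 6.31, with 6.68 at 5 h and 6.24 in the control. Both dimmer probe sets were higher at 5 h than on the 4 arrays compared, as were SLC26A6, HCRP1 and LINC01000. What transcript these probe sets read was not tested.

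Some long noncoding RNAs varied between neighbouring hours by more than any pair difference. FTX, a regulator of the X-inactivation centre, was at 7.76 and 6.86 at 6 and 7 h, against 7.25 and 8.41 at 3 and 4 h, and at 9.60 at 5 h. MALAT1, an abundant nuclear RNA, was at 8.91 and 10.40, against 9.72 and 9.29. In both the arrays of the pairs overlapped.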
